A study of Mus musculus with 8 samples.

Results

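The insulin-like growth factor (IGF) system was followed through 10 genes of the visual cortex: the ligands Igf1 and Igf2, the receptors Igf1r and Igf2r, and the binding proteins Igfbp2 to Igfbp7. The genes were chosen by name, with earlier results of these data known. Each was represented by its transcript with the highest total count over the libraries, giving 10 of the 34980 genes named in the count files. In this system IGF1 and IGF2 are secreted peptides that activate the IGF1 receptor, a tyrosine kinase that signals through insulin receptor substrates to the PI3K-Akt and MAP kinase cascades. The IGF2 receptor, which also sorts mannose 6-phosphate tagged enzymes, carries IGF2 to lysosomes and is mainly a clearance receptor. Binding proteins hold IGFs in the extracellular space, where they can prolong, restrict or localise IGF action, and proteases release the ligand from them. In the visual cortex, IGF1 has been linked to experience-dependent plasticity of eye dominance in young animals.

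RNA was sequenced from layer IV of the visual cortex, dissected by hand, of B6D2 mice. The groups were Otx2 heterozygotes at postnatal day 30 (P30; Otx2 +/- in the sample labels and Otx2 (+/GFP) in the series design), wild types (Otx2 +/+) at P100 and wild types at P30. Each group had 2 libraries, each condition pooled 4 mice, and nothing in the labels says that the duplicates came from separate pools, so p-values measure the spread between libraries, which may be technical. Heterozygous P100 samples were not analysed here. OTX2 is a homeoprotein made outside the cortex, the choroid plexus being a known source, and taken up by parvalbumin interneurons, whose maturation times the critical period for visual plasticity. The age comparison therefore sets adult cortex against cortex at the juvenile stage, and the genotype comparison sets reduced Otx2 dosage against normal dosage at the juvenile stage.

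Gene-level totals ran from 11016841 to 15308781 counts per library. Layer 4 and upper layer markers had summed levels of 1194 to 1432 CPM (gene counts scaled to a common library size with TMM factors). Layer 5 and 6 markers summed to 121.9 to 219.4 CPM. These sums cover different genes, so setting them side by side does not measure enrichment of layer IV. The heterozygous libraries also differed from the wild types in their sex-linked transcripts. Xist, transcribed from the inactive X of females, had 785 and 924 CPM in the heterozygous libraries and 0.264 to 0.639 in the wild-type libraries, whereas Y-linked Ddx3y had 2.48 and 1.04 CPM in heterozygotes and 146 to 156 in wild types. Sex and genotype cannot be told apart here, while the age comparison is within libraries of the same pattern. The targeted gene itself gave no check of the labels: Otx2 had 0 counts in 5 libraries and 73 in the second heterozygous library. That library also held 8966 counts of the choroid plexus gene Ttr, against at most 1 in any other, and all 12 choroid plexus markers were highest in it. Values without that library are given beside the results in heterozygotes.

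Igfbp2, which had the largest difference with age of the 10 genes, and Igfbp5, which had the smallest, lie side by side on chromosome 1, in opposite orientations, with 5457 bases between their 3′ ends. Igfbp2 (ENSMUSG00000039323) spans 72824503 to 72852474 on the plus strand and Igfbp5 (ENSMUSG00000026185) spans 72857932 to 72874884 on the minus strand, in mm10. Their promoters are shown because these neighbours differed so in their age values. Each window is the 300 bases from 250 before to 50 after the RefSeq start (GRCm38.p6), printed 5′ to 3′ on the gene's strand, with the GC box motif GGGCGG or its reverse complement in capitals.
Igfbp2, chr1:72824230-72824529, plus strand: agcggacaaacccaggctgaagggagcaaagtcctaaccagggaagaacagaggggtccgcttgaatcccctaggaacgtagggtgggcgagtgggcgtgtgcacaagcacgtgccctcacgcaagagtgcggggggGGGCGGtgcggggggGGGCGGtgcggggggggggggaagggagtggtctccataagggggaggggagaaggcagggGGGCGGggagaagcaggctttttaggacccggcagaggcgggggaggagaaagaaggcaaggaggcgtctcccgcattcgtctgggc
Igfbp5, chr1:72874816-72875115, minus strand: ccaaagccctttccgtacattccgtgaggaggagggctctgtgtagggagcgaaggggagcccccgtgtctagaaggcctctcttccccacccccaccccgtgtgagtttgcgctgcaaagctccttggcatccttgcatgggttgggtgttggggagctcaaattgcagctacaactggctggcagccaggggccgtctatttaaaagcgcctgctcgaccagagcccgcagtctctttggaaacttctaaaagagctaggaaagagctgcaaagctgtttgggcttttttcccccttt
The Igfbp2 window held 3 GC boxes, 67% G and C bases and 18 CpG pairs, and the Igfbp5 window held none of the motif, 56.3% G and C bases and 10 CpG pairs. Over both strands, the GC box was found in the window nearest the counted transcript in 5 of the 10 genes of the system, and in 35.7% of 32851 promoter windows of this length. TATAAA was found in 2 of the 10 and in 13.6% of all windows. The letters of the cAMP response element (TGACGTCA), the AP-1 site (TGAGTCA) and the Egr site (GCGTGGGCG) were found in the nearest window of 0 of the 10, against 1.79%, 5.2% and 0.612% of all windows. The nearest window was not always close: the RefSeq start of Igf1 lies 2043 bases from the start of the counted transcript, against 23 bases for Igfbp2 and 19 for Igfbp5. Over all 14 windows of the 10 genes, 1 held the AP-1 letters, the second Igfbp2 window, whose start is 884 bases from that of the counted transcript. These are matches of letters in a window and describe no binding.

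Levels within the system spanned more than an order of magnitude per transcript length. On the CPM per kilobase scale, heterozygotes at P30 had the highest mean for Igfbp2, at 30.2 ± 5.45 (SD, n = 2), followed by Igfbp6 (24.8), Igfbp7 (17.8), Igfbp5 (16.1) and Igf2r (12.6). Igfbp4 (7.06), Igf1r (4.77) and Igfbp3 (3.57) lay lower, and the ligands Igf1 (1.77) and Igf2 (1.44) stood at the bottom, with no overlap of libraries between neighbours in this order. In wild types at P100 Igfbp6 led at 31.4 ± 10.3, and Igfbp2 held the fourth rank at 12.7 ± 0.377, below Igfbp7 (17.2 ± 4.43) and Igfbp5 (15.5). The P100 libraries of Igfbp7 and Igfbp5 overlapped, so the order of that pair is not set, and Igf2 was again lowest, at 0.622. Wild types at P30 had the same order of means as heterozygotes at P30. Their Igfbp2, at 29.3 ± 3.85, and Igfbp6, at 28.4 ± 4.46, overlapped, as did their ligands, Igf1 at 1.56 ± 0.169 and Igf2 at 1.30 ± 0.237 (SD, n = 2 each). Among 15510 tested genes with a length, the mean level over all libraries put Igfbp6 at percentile 84.9, Igfbp2 at 81.6 and Igf1 at 22.1, with Igf2 below it.

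**Figure D1:**
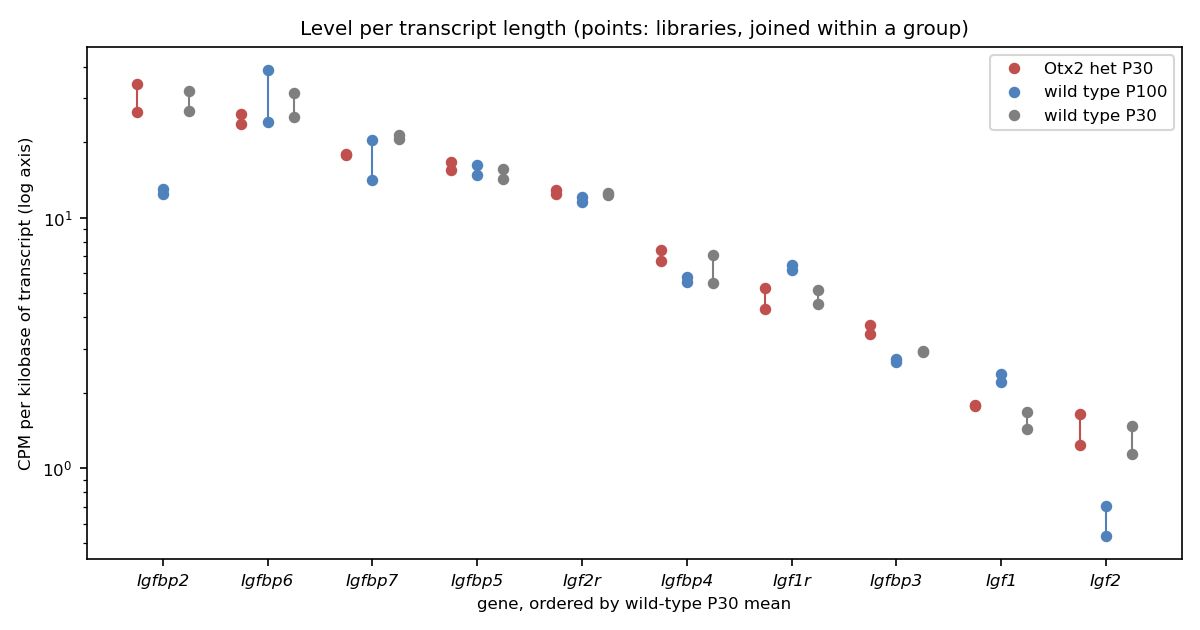
Level of each gene in CPM per kilobase of the counted transcript (log axis), ordered along the horizontal axis by the mean in wild types at P30; points are libraries, joined within a group of 2. Binding proteins lead and the ligands Igf1 and Igf2 lie lowest, and Igfbp2 stands apart at P100, at 12.7 on average against 29.3 at P30 in wild types.

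With age, 4 of the 10 genes passed the edgeR quasi-likelihood test with Benjamini-Hochberg adjustment over all 15841 genes tested, at a threshold of 0.05. Igf1 and Igf1r were higher in wild types at P100 than at P30, and Igf2 and Igfbp2 were lower. Of all genes tested, 7.54% passed in either direction, 3% higher and 4.54% lower, and 22.7% had an unadjusted p under 0.05, as did 4 of the 10. The 10 genes and later lists were chosen with earlier results of these data known, so their counts are no test against such shares. The median log2 difference was -0.096 over the 10 genes and 0.000565 over all genes tested. Libraries of the compared ages did not overlap in 7 of the 10 genes, against 51.2% of all genes tested. Because this is bulk tissue, fewer cells of a type and less RNA per cell cannot be told apart in any of these differences.

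Igf1, the ligand with the highest affinity for the IGF1 receptor, lies at 87858265 to 87937042 on the plus strand of chromosome 10. It had 15.6 and 16.8 CPM in wild types at P100, against 10.1 and 11.8 CPM in wild types at P30. Both P100 libraries lay above both P30 libraries. The level was 1.46-fold higher at P100, a log2 difference of 0.55 (SE 0.14, edgeR adjusted p = 0.0285). Of its 8 annotated transcripts, which overlap and can share reads, all 8 had higher mean CPM at P100, and 2 of them had libraries that did not overlap between ages. The counted transcript, of 7052 bases, differed by 0.56 on the log2 scale of mean CPM, and the others, with 9.66% to 23.5% of its counts, by 0.20 to 0.46. The call for Igf1 depended on how it was counted: its adjusted p was 0.154 with counts summed over transcripts, 0.430 with the second transcript and 0.115 in DESeq2. It was 0.0799 without the first P100 library, 0.156 without the second and 0.136 without the first P30 library.

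Igf2, the ligand that is imprinted and most abundant before birth, lies at 142650766 to 142666816 on the minus strand of chromosome 7. It had 2.53 and 3.34 CPM in wild types at P100, against 6.94 and 5.35 CPM in wild types at P30. These rest on few reads, 35 and 38 counts at P100 against 76 and 77 at P30, and the ages did not overlap. The level was 2.09-fold lower at P100, a log2 difference of -1.06 (SE 0.25, edgeR adjusted p = 0.0219). All 8 annotated Igf2 transcripts were lower at P100 with no overlap between ages, although overlapping transcripts can share reads. Exons of the annotated gene Gm49394 on the same strand cover 76.2% of the bases of the counted Igf2 transcript, so their reads cannot be told apart. The adjusted p was 0.161 without the first P100 library, 0.0678 without the second and 0.113 without the first P30 library. Igf2 is known to be made by choroid plexus and meninges, and summed CPM of 12 choroid plexus markers was 3.91 and 4.22 at P100 against 2.10 and 3.34 at P30. Only 2 of these markers, Kl and Prlr, passed the filter on low counts. They made up most of the P100 sums, at 1.16 and 1.06 CPM for Kl and 1.66 and 2.73 CPM for Prlr. For 12 meningeal and perivascular fibroblast markers the summed CPM was 16.8 and 18.6 at P100 against 19.9 and 19.2 at P30. Among these 12, 0 passed the edgeR test and 2 had an unadjusted p under 0.05, against 7.54% and 22.7% of all genes tested. The part of these cells in the Igf2 difference was not tested.

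**Figure D2:**
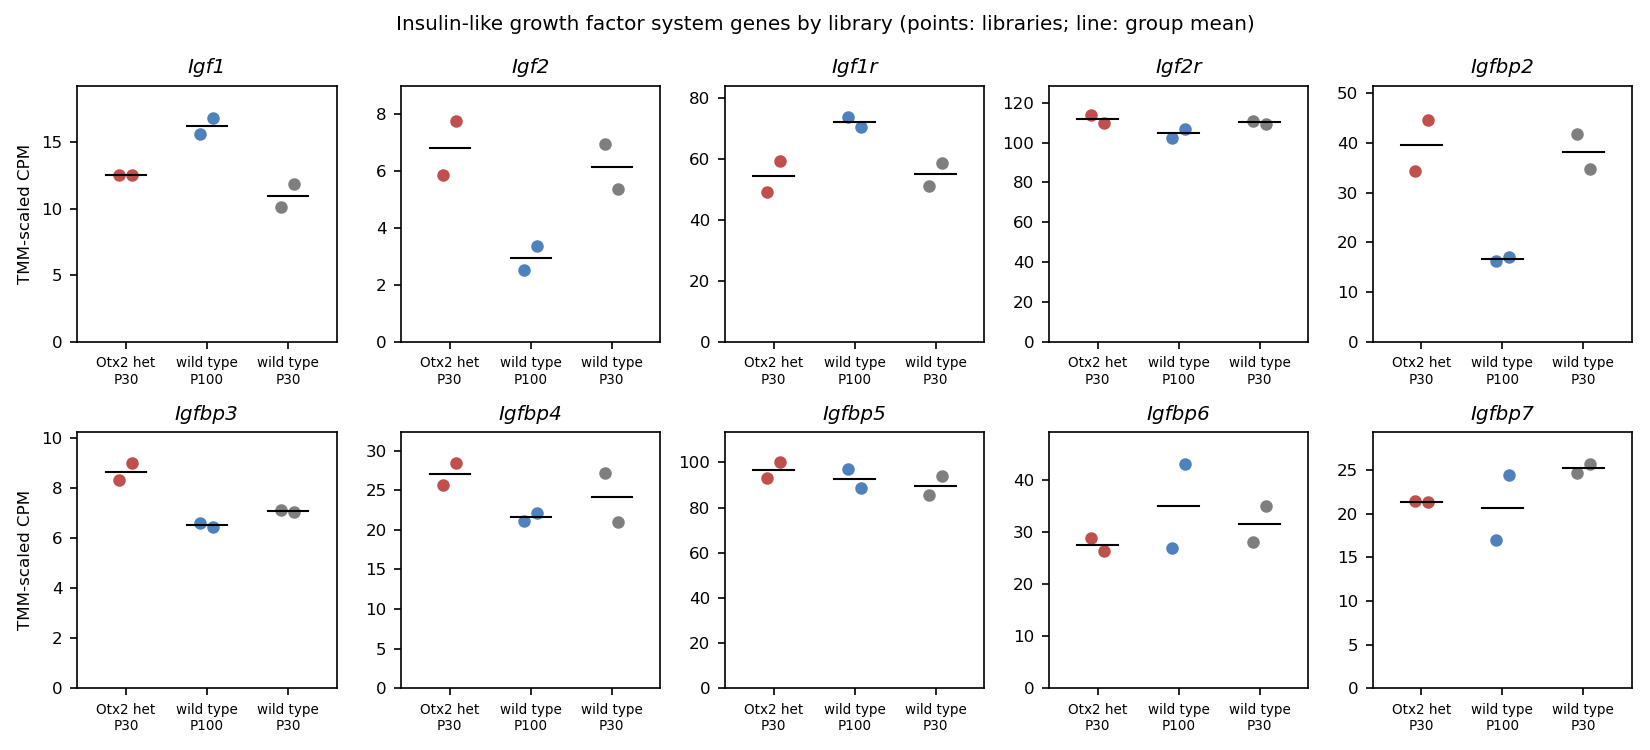
TMM-scaled CPM of the 10 genes in each library, on axes that start at 0; points are libraries and lines are group means. Igf1 and Igf1r lie higher, and Igf2 and Igfbp2 lower, in both wild-type P100 libraries than in either wild-type P30 library, and heterozygotes at P30 lie near wild types at P30 for these genes.

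Of the receptors, Igf1r, the signalling kinase, had 73.8 and 70.7 CPM in wild types at P100, against 51.3 and 58.7 CPM in wild types at P30. The P100 libraries were both higher. The level was 1.31-fold higher at P100, a log2 difference of 0.39 (SE 0.11, edgeR adjusted p = 0.0373). The files held 1 Igf1r transcript, so its counts are the same when transcripts are summed, but the adjusted p in the fit of summed counts for all genes was 0.0975. It was 0.172 without the first P100 library, 0.123 without the second and 0.189 without the first P30 library. The clearance receptor Igf2r had 102.4 and 107.1 CPM at P100, against 111.0 and 109.4 at P30. Its ages did not overlap, but the log2 difference was -0.073 (95% interval -0.23 to 0.083, edgeR adjusted p = 0.602).

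Of the binding proteins, Igfbp2, one of the main IGF carriers of brain and cerebrospinal fluid, had 16.3 and 17.0 CPM in wild types at P100, against 41.8 and 34.7 CPM in wild types at P30. The P100 libraries were close to each other and well below either P30 library. The level was 2.29-fold lower at P100, a log2 difference of -1.20 (SE 0.14, edgeR adjusted p = 2.27e-04), which ranked 59 by p among all genes tested. Its call held under all 16 alternatives run, with adjusted p from 3.41e-19 to 0.00922. The log2 differences of the 3 Igfbp2 transcripts were -1.20, -1.19 and -1.10, each without overlap between ages. The authors' deposited table, fitted per transcript, gave the Igfbp2 transcript a log2 difference of -1.20 with adjusted p = 7.35e-07. The same deposited table by the authors gave adjusted p of 0.226 for Igf1, 0.105 for Igf1r and 0.0815 for Igf2, with log2 differences of 0.56, 0.40 and -1.06.

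The other 5 binding protein genes did not pass the test between ages. Igfbp5, which lies next to Igfbp2 and is a carrier bound to extracellular matrix, had 96.9 and 88.7 CPM at P100, against 85.5 and 93.9 CPM at P30. Its ages overlapped, and the 95% interval of its log2 difference ran from -0.13 to 0.23. Igfbp4, a carrier mostly known for restraining IGF action, had a log2 difference of -0.15 (interval -0.43 to 0.14). All 4 Igfbp4 transcripts, which can share reads, had lower mean CPM at P100. Ages did not overlap in 3 of them, but did in the counted transcript. Igfbp3, the main carrier of IGFs in serum, had a log2 difference of -0.12 (interval -0.49 to 0.25). Igfbp6, which prefers IGF2 over IGF1, had 26.9 and 43.0 CPM at P100 against 28.0 and 35.0 CPM at P30. The P100 libraries of Igfbp6 were further apart than the group means. Igfbp7, which binds IGFs weakly and is made by vascular cells, had 16.9 and 24.5 CPM at P100 against 24.6 and 25.7 CPM at P30. Both P100 libraries of Igfbp7 were lower, but by little in the second, and its edgeR adjusted p was 0.255. Summed CPM of 12 endothelial markers was 263.0 and 280.7 at P100 against 337.7 and 296.5 at P30, with 2 of 12 passing as lower. For 10 mural cell markers it was 243.2 and 239.0 at P100 against 305.1 and 301.3 at P30, with 2 of 10 passing as lower. The share passing as lower between ages over all genes tested was 4.54%. The part of these cells in the Igfbp7 values was not tested.

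Between genotypes at P30, 0 of the 10 genes passed the edgeR test, and 0 had an unadjusted p under 0.05, against 17.3% of all genes tested. DESeq2 and limma-voom also called 0. Of all genes tested, 3.23% passed between genotypes, 0.903% higher and 2.32% lower. Libraries did not overlap in 3 of the 10 genes, against 48.9% of all genes tested, and the median log2 difference was 0.080 over the 10 and 0.00295 over all.

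Igf1 had 12.5 and 12.5 CPM in heterozygotes at P30, against 10.1 and 11.8 CPM in wild types at P30. The heterozygous libraries lay just above both wild-type ones, with a log2 difference of 0.18 (95% interval -0.12 to 0.48). Igf2 had 5.83 and 7.75 CPM in heterozygotes, against 6.94 and 5.35 CPM in wild types. The higher heterozygous value was in the library with choroid plexus transcripts, and the log2 difference was 0.16 with all libraries (interval -0.31 to 0.63) and -0.064 without that library. Igf1r had 49.3 and 59.4 CPM in heterozygotes, against 51.3 and 58.7 CPM in wild types. These nearly coincided, with a log2 difference of -0.019 (interval -0.25 to 0.21). Igfbp2 had 34.5 and 44.5 CPM in heterozygotes, against 41.8 and 34.7 CPM in wild types. The genotypes overlapped, and the log2 difference was 0.052 (interval -0.23 to 0.33) with all libraries and -0.15 without the library with choroid plexus transcripts. That library was the highest of all 6 for 5 of the 10 genes, and the part of choroid plexus RNA in these levels was not tested.

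The other genes lay within similar intervals. Igf2r had 114.1 and 109.9 CPM in heterozygotes against 111.0 and 109.4 CPM in wild types, and the interval of its log2 difference ran from -0.13 to 0.18. Igfbp3 had 8.31 and 8.98 CPM in heterozygotes against 7.12 and 7.02 CPM in wild types. Both heterozygous Igfbp3 libraries were higher, with an interval from -0.060 to 0.64 (log2) and edgeR adjusted p = 0.391. Igfbp7 had 21.4 and 21.3 CPM in heterozygotes against 24.6 and 25.7 CPM in wild types. Both heterozygous Igfbp7 libraries were lower, with an interval from -0.55 to 0.072 and edgeR adjusted p = 0.433. Endothelial markers summed to 271.1 and 277.3 CPM in heterozygotes against 337.7 and 296.5 in wild types at P30. Among them 1 of 12 passed as lower, against 2.32% of all genes tested. Mural cell markers summed to 274.5 and 298.6 CPM against 305.1 and 301.3, with 0 of 10 passing. The part of these cells in the Igfbp7 values was not tested. Igfbp4, Igfbp5 and Igfbp6 had log2 differences of 0.18, 0.11 and -0.20, and their libraries overlapped between genotypes. Without the library with choroid plexus transcripts, the log2 differences were 0.18 for Igf1, -0.16 for Igf1r, 0.050 for Igf2r, 0.23 for Igfbp3, 0.099 for Igfbp4, 0.053 for Igfbp5, -0.14 for Igfbp6 and -0.23 for Igfbp7, and 0 of the 10 genes passed the edgeR test. The intervals with all libraries were narrowest for Igf2r and widest for Igf2.

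**Figure D3:**
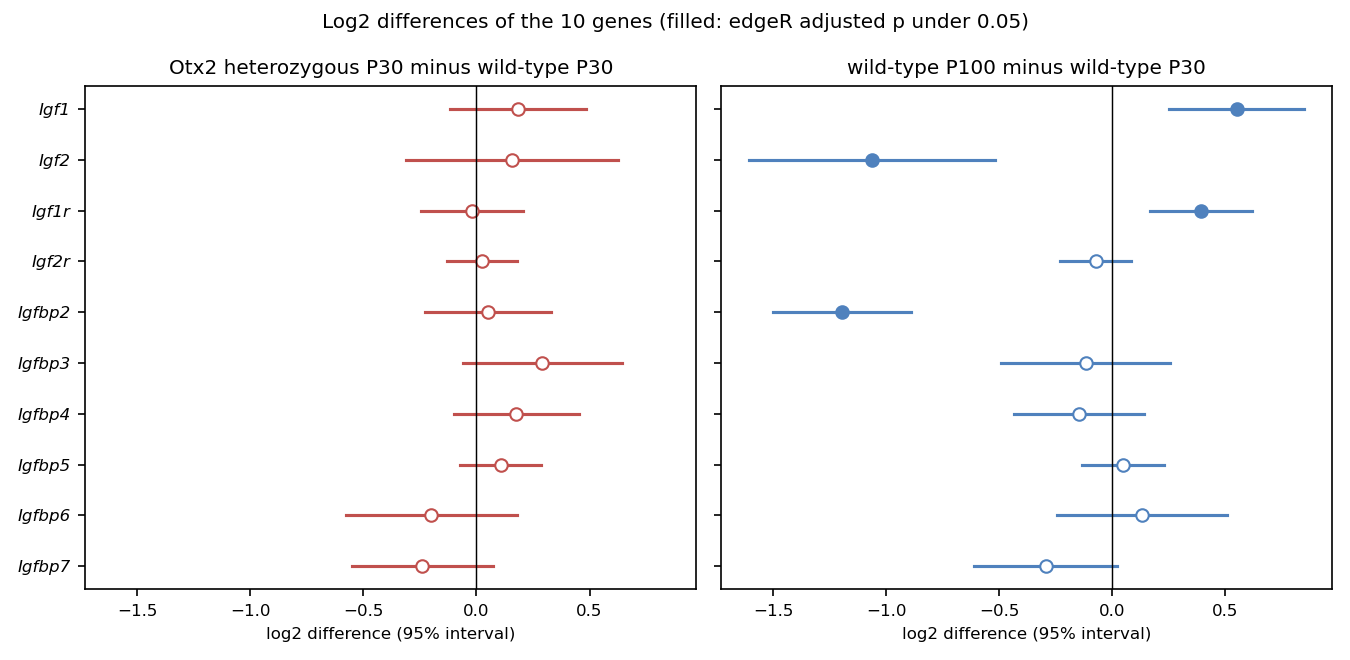
Log2 difference of each gene with its 95% interval, in Otx2 heterozygotes at P30 minus wild types at P30 (left) and wild types at P100 minus wild types at P30 (right); filled points had an edgeR adjusted p under 0.05. The left panel has 0 filled points and the right panel has 4, with Igfbp2 at -1.20 and Igf2 at -1.06 farthest from 0.

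Set directly against wild types at P100, heterozygotes at P30 differed in 3 of the 10 genes, where 5.1% of all genes tested passed, 2.44% higher and 2.66% lower. Libraries did not overlap in 7 of the 10 genes, against 50.5% of all genes tested. As both earlier comparisons use the same wild types at P30, this contrast is also the test of the difference between them. Igfbp2 was 2.38-fold higher in heterozygotes at P30 than in wild types at P100, a log2 difference of 1.25 (SE 0.14, edgeR adjusted p = 2.32e-04). Igf2 was 2.33-fold higher, a log2 difference of 1.22 (SE 0.24, edgeR adjusted p = 0.0108). Igf1r was 1.33-fold lower, a log2 difference of -0.41 (SE 0.10, edgeR adjusted p = 0.0362). Igf1 did not pass, at a log2 difference of -0.37 and an edgeR adjusted p of 0.141. The age and genotype differences of Igfbp2, Igf2 and Igf1r thus differed from each other by this test, and those of Igf1 did not pass it. The genotype difference includes any difference of sex, as the sex-linked transcripts followed genotype. Without the library with choroid plexus transcripts, the log2 difference was 1.05 for Igfbp2 (edgeR adjusted p = 8.21e-04), 1.00 for Igf2 (0.0823) and -0.55 for Igf1r (0.0256). The Igf2 call was also lost without the first P100 library, at 0.124. The Igf1r call was lost without the first heterozygous library (0.351), without the first P100 library (0.191), without the second (0.120) and with summed transcripts (0.107).

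Ratios within a library do not depend on how libraries are scaled, and are given as values without a test. The Igf1 level per length over that of Igf2 was 1.44 and 1.08 in heterozygotes at P30, 4.11 and 3.37 in wild types at P100, and 0.978 and 1.48 in wild types at P30. The balance of ligands at P100 thus lay well to the Igf1 side of every P30 library of either genotype. Igfbp2 made up 27.5% and 33.0% of the summed CPM per kilobase of the 6 binding protein genes in heterozygotes at P30, 16.6% and 13.6% in wild types at P100, and 31.4% and 25.6% in wild types at P30. The summed level, which unlike the ratios does depend on scaling, was 95.8 and 103.4 CPM per kilobase in heterozygotes at P30. It was 75.1 and 95.3 in wild types at P100, and 102.0 and 103.5 in wild types at P30. The mean sum in wild types was 85.2 at P100 against 102.8 at P30. Igfbp2 is part of this sum, at 12.7 against 29.3 on average, so its lower share and the lower sum are not separate observations. The P100 sums were far apart, and the second, at 95.3, lay only just below the first heterozygous library, at 95.8. The Igf1r level over that of Igf2r was 0.337 and 0.421 in heterozygotes at P30, 0.562 and 0.515 in wild types at P100, and 0.360 and 0.418 in wild types at P30. Igf2r exceeded Igf1r per length in all 6 libraries, by less at P100. For the neighbours on chromosome 1, Igfbp2 counts over Igfbp5 counts were 0.370 and 0.444 in heterozygotes at P30, 0.168 and 0.191 in wild types at P100, and 0.489 and 0.369 in wild types at P30.

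**Figure D4:**
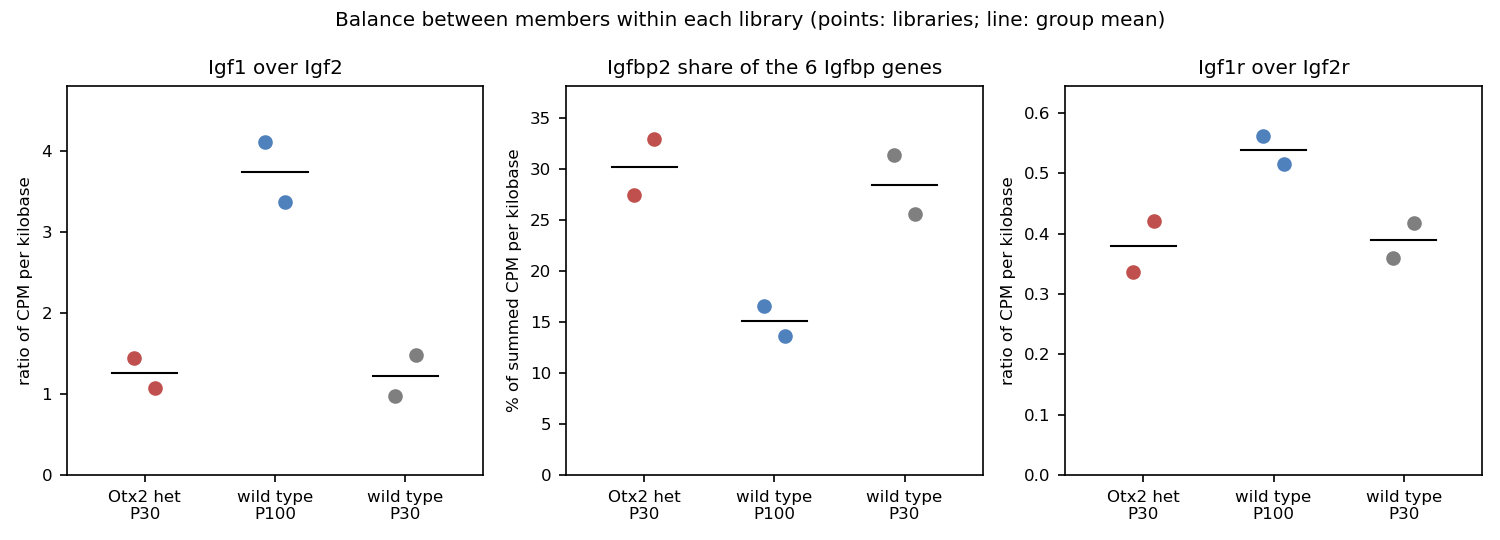
Ratios between genes of the system within each library, from CPM per kilobase: Igf1 over Igf2, the percent share of Igfbp2 in the 6 binding protein genes, and Igf1r over Igf2r; points are libraries, lines are group means and axes start at 0. Both wild-type P100 libraries lie apart from the 4 P30 libraries in each panel, with the Igfbp2 share at 16.6% and 13.6%.

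Around these genes, 14 further carriers, proteases and related genes were listed, of which 7 passed the filter on low counts. In both comparisons 0 of the 7 were higher and 2 were lower, Pappa and Htra1, where 2.32% of all genes tested were lower between genotypes and 4.54% between ages. Both comparisons use the same wild types at P30. Between heterozygotes at P30 and wild types at P100, 0 of the 7 passed the edgeR test, where 5.1% of all genes tested did. Pappa, a protease that cleaves IGFBP4 and IGFBP5, had 6 and 9 counts in heterozygotes at P30, 9 and 12 in wild types at P100, and 22 and 38 in wild types at P30. Its mean was lowest in heterozygotes, but their difference from wild types at P100 did not pass the test. The log2 difference from wild types at P30 was -2.23 in heterozygotes (edgeR adjusted p = 0.0108) and -1.48 at P100 (0.0382). Htra1, a secreted serine protease able to cleave IGF binding proteins, averaged 102.6 ± 10.9 CPM in heterozygotes at P30, 101.0 ± 2.16 in wild types at P100 and 131.5 ± 3.03 in wild types at P30 (SD, n = 2 each). The log2 difference was -0.36 for heterozygotes (edgeR adjusted p = 0.0289) and -0.38 for P100 (0.0141), both against wild types at P30. Without the library with choroid plexus transcripts, the log2 difference of heterozygotes was -2.52 for Pappa (edgeR adjusted p = 0.0373) and -0.47 for Htra1 (0.0213). The direction was the same under all 16 alternatives for both genes, but the calls were not kept under all. Between genotypes the Pappa call was lost in DESeq2 (adjusted p = 0.0511), without the first heterozygous library (0.123) and without the second wild-type P30 library (0.122). Between ages it was lost in DESeq2 (0.236), with summed transcripts (0.0908) and without any 1 of the 4 libraries compared (0.0752 to 0.248). Between genotypes the Htra1 call was lost with summed transcripts (0.0726), with the second transcript (0.0680), without either P100 library (0.0570 and 0.0532), without the first heterozygous library (0.380) and without either wild-type P30 library (0.115 and 0.106). Between ages it was lost without any 1 of the 4 libraries compared (0.0517 to 0.101). Igfbp1, Igfals, Igfbpl1, H19 and Igf2bp1 were at 0 to 2 counts in every library, at or below the floor of 3 counts, so they were not detectable at this depth.

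Downstream of the receptor, 43 of 45 listed insulin and IGF signalling genes passed the filter. Between genotypes at P30, 1 of the 43 was higher and 2 were lower, with a median log2 difference of -0.056, where 3.23% of all genes tested passed. Between ages, 1 was higher and 3 were lower, with a median of -0.015, where 7.54% of all genes tested passed. The count between ages lies near the share over all genes. The genes below are given for their values and not as a result about the list. Irs2, an adaptor that couples the receptor to PI3K, averaged 40.9 ± 5.27 CPM in heterozygotes at P30, 43.7 ± 1.62 in wild types at P100 and 72.0 ± 25.4 in wild types at P30 (SD, n = 2 each). Its P30 wild-type libraries were far apart, at 54.0 and 90.0 CPM, yet both above the other groups, and it was 1.77-fold lower in heterozygotes (edgeR adjusted p = 0.0194) and 1.66-fold lower at P100 (0.0227). Akt2, a kinase of the PI3K branch, averaged 13.9 ± 0.567 CPM in heterozygotes at P30, 13.0 ± 0.274 in wild types at P100 and 19.4 ± 0.419 in wild types at P30. It was 1.40-fold lower in heterozygotes (edgeR adjusted p = 0.0463) and 1.49-fold lower at P100 (0.0138). Grb10, an adaptor that restrains the receptor, was 1.29-fold higher in heterozygotes, at 56.9 ± 0.240 CPM against 44.0 ± 0.944 in wild types at P30 (edgeR adjusted p = 0.0403). Gab1, a docking protein, was 1.52-fold lower at P100, at 13.9 ± 1.06 CPM against 21.2 ± 0.293 at P30 (edgeR adjusted p = 0.0150). Rictor, the defining subunit of mTOR complex 2, was 1.20-fold higher at P100, at 202.9 ± 9.97 CPM against 168.6 ± 8.96 at P30 (edgeR adjusted p = 0.0365). The comparisons share the wild types at P30. Without the second wild-type P30 library, the log2 difference of Irs2 was -0.40 between genotypes (edgeR adjusted p = 0.159) and -0.30 between ages (0.197). Without the library with choroid plexus transcripts, the log2 difference of heterozygotes was -0.96 for Irs2 (0.0170), -0.44 for Akt2 (0.220) and 0.37 for Grb10 (0.158), so that 1 call was kept. The calls depended on single libraries. Between genotypes there were 0 calls without the first heterozygous library, 0 without the second wild-type P30 library, and 1 without the second heterozygous or the first wild-type P30 library. Between ages there were 0 calls without the second P100 or the second P30 library and 1 without the first P100 library. Each named signalling gene kept the direction of its difference under all 16 alternatives.

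Markers of the cells in the dissection were set beside these results. Layer 5 and 6 markers summed to 219.4 and 196.3 CPM in heterozygotes at P30. In wild types they summed to 175.7 and 121.9 CPM at P100 and 167.1 and 146.8 CPM at P30. Among them 1 of 9 passed as higher in heterozygotes, where 0.903% of all genes tested did. Between ages 0 passed, where 7.54% of all genes tested did. Layer 4 and upper layer markers summed to 1194 and 1264 CPM in heterozygotes at P30, 1305 and 1344 in wild types at P100, and 1312 and 1432 in wild types at P30. Heterozygotes were thus high in the deep layer markers and low in the layer 4 ones. In the layer 4 list 2 of 10 passed as lower in heterozygotes, against 2.32% of all genes tested. Microglial markers, set here because microglia are a known source of Igf1 in brain, summed to 338 and 382 CPM in heterozygotes at P30, 321 and 305 in wild types at P100, and 403 and 386 in wild types at P30. The microglial sums were lowest at P100, and 3 of 12 markers passed as lower with age, against 4.54% of all genes tested. Markers of interneurons, some of which are known to express Igf1, summed to 744 and 759 CPM in heterozygotes at P30. In wild types these summed to 677 and 811 CPM at P100 and 670 and 710 CPM at P30. Between genotypes and between ages 0 of 10 passed the edgeR test, where 3.23% and 7.54% of all genes tested passed. The part of cell makeup in the IGF results was not tested.

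**Figure D5:**
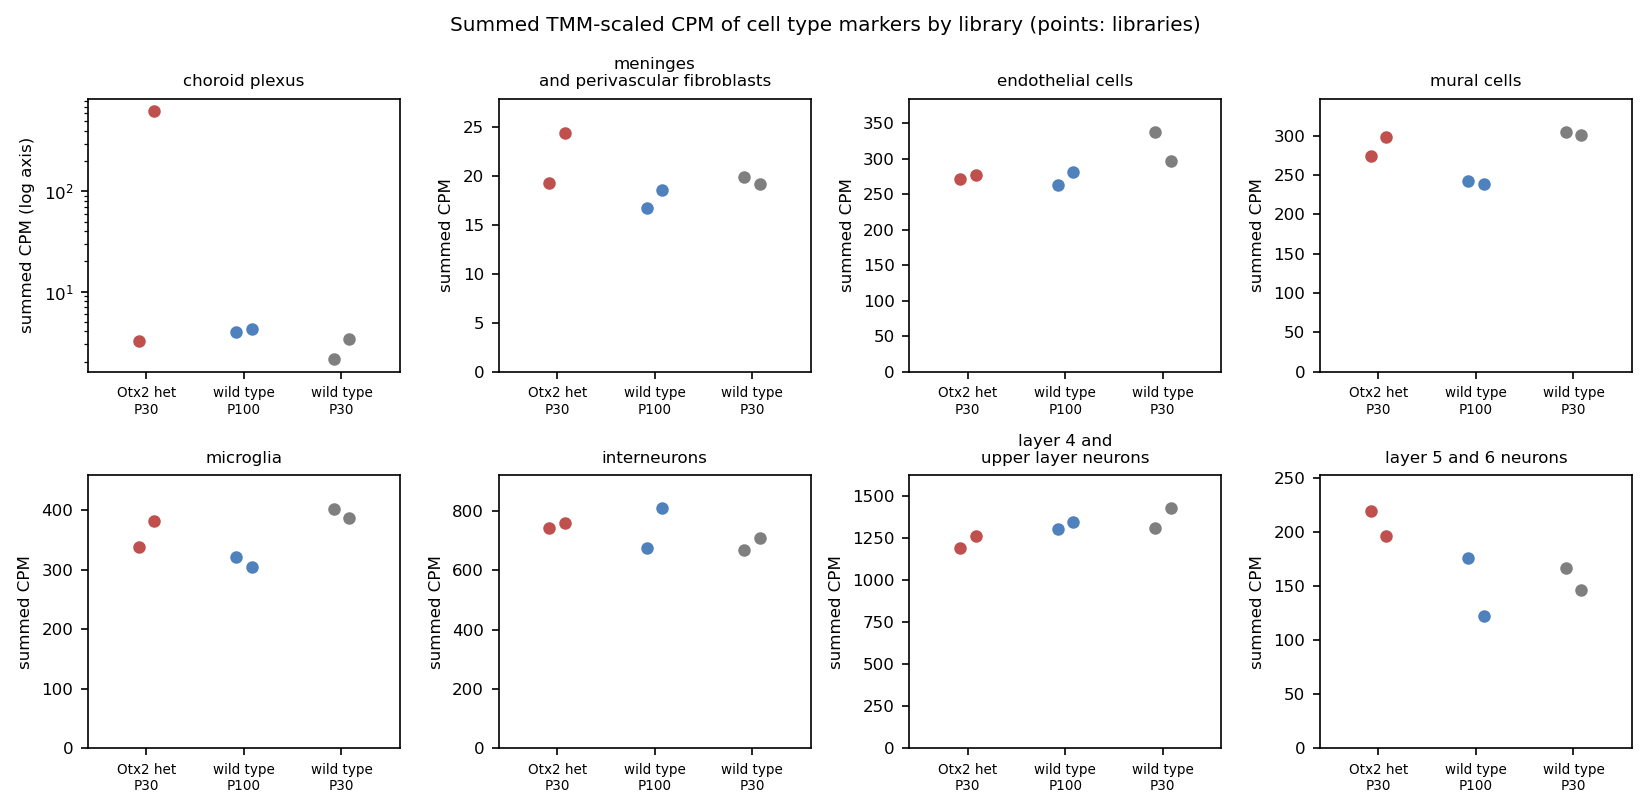
Summed TMM-scaled CPM of 8 marker lists in each library; points are libraries, and the choroid plexus panel has a log axis while the others start at 0. The second heterozygous library stands alone in choroid plexus markers at 630 CPM, against at most 4.22 in the other 5 libraries, and mural cell markers are lowest at P100.

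Genes whose profile over the 6 libraries was most like that of the genes changed with age were found by Pearson correlation of log2 CPM, as a description over libraries that share groups and depth. For Igfbp2 these were Mkrn3 (r = 0.994), Sh3glb1 (0.992) and Kctd20 (0.991). For Igf2 they were Snora65 (0.995), Bmp1 (0.992) and Tbc1d9 (0.991). For Igf1 they were Elmod1 (0.993), Rdx (0.989) and Ptchd4 (0.987), and for Igf1r they were Rsbn1l (0.993), Sycp2 (0.988) and Ep400 (0.987). With 6 libraries in 3 groups and 15841 genes searched, these high values carry no test.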

How the data were processed

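Layer IV RNA was sequenced in 8 samples, of which 6 were used here. The deposited values were raw read counts for 95533 Ensembl transcripts, per the file headers, and 9669 transcripts without a gene name, with 13.96% of counts, were left out. Tools named in the submitters' processing notes are Bowtie, HTSeq and DESeq (1.8.3), with the mm10 build; how they were run, which annotation and whether strand was used is not given in the sources used here. Comparison tables deposited by the authors hold, per the file headers, signal (group means of counts over size factors), the fold ratio, its log2, p-values and a dispersion score per transcript; these are used only where named.

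Overlapping transcripts of a gene can hold near-equal counts, as for Igf2 (totals of 432, 431 and 429), so reads appear to be counted in each transcript they overlap. The transcript with the highest total therefore stood for its gene. Counts were scaled by TMM (factors 0.968 to 1.02), filtered with filterByExpr (minimum count 10, minimum total 15), and fitted with edgeR 4.0.16 in R 4.3.3 as 3 groups over 6 libraries, leaving 3 residual degrees of freedom. p-values were adjusted over the 15841 genes tested. Standard errors are the log2 difference over the root of F, and 95% intervals use the moderated t distribution. Levels per length divide by the counted transcript's length in GENCODE M21. Library differences exceeded sampling noise in each group (chi-square per degree of freedom 4.17 to 5.40). The fit was tested on simulated data. There 10.7% of the calls between ages and 4.43% of those between genotypes fell on unchanged genes. The share between ages was above the adjusted p threshold. Of simulated 1.5-fold differences 62.7% were recovered in each of these comparisons. Of 4-fold ones, 93.9% were recovered between ages and 92.4% between genotypes. Alternatives used DESeq2 1.42.0, limma 3.58.1, other scalings, filters and transcripts, and leaving out each library. The members and gene lists were chosen with earlier results of these data known. Named genes are the members and the called genes of the fixed lists, and likeness names the 3 genes with the highest r.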

Additional observations from a re-analysis of the deposited data

How the results depend on the processing

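The calls between genotypes stayed at 0 of the 10 genes under every alternative run, by edgeR, DESeq2 and limma-voom. Between ages the 4 calls kept their direction under all 16 alternatives, and their number was 2 with counts summed over transcripts and 1 to 4 when 1 library was left out; for heterozygotes at P30 against wild types at P100 it was 1 to 3 when 1 library was left out. Signalling genes called between genotypes (3) numbered 0 in DESeq2, 0 with summed transcripts, 1 with the second transcript, 1 with only the 4 libraries compared and 0 to 2 with 1 library left out. Between ages (4) they numbered 2 in DESeq2, 1 with summed transcripts and 0 to 3 with 1 library left out. All genes called between genotypes (511) numbered 1120 with no filter, 263 with summed transcripts and 184 to 473 with 1 library left out. Between ages (1194) they numbered 1860 with no filter, 770 in DESeq2, 791 with summed transcripts and 351 to 1078 with 1 library left out. The cause was not tested.

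Log2 differences that changed sign were those of genes that did not pass. Between ages Igf2r was 0.062 with the second transcript. With 1 library left out, the ranges between ages were -0.33 to 0.042 for Igfbp4, -0.020 to 0.12 for Igfbp5 and -0.24 to 0.44 for Igfbp6. Between genotypes they were -0.064 to 0.35 for Igf2, -0.16 to 0.11 for Igf1r, -0.0035 to 0.050 for Igf2r, -0.15 to 0.22 for Igfbp2 and -0.0068 to 0.37 for Igfbp4. For heterozygotes at P30 against wild types at P100 they were -0.0034 to 0.13 for Igfbp5, -0.64 to 0.038 for Igfbp6 and -0.19 to 0.33 for Igfbp7.

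The labels do not say what the replicate numbers pair. Deviations of same-numbered libraries correlated at 0.0882, -0.00612 and -0.00248, which does not settle whether they share a batch. With the replicate number as a block, calls among the 10 genes were 0 between genotypes and 4 between ages. For heterozygotes at P30 against wild types at P100 there were 3. Over all genes, calls numbered 642 between genotypes and 1320 between ages, against 511 and 1194 without the block. Depth limits Igf2 most, at 35 to 119 counts per library; floors and counts cover counting error only.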
